A study of Mus musculus with 16 samples.

Results

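In hearts of mice given paromomycin and neomycin, the chromatin regions recovered with a Meis1 antibody and with a Hoxb13 antibody were compared. A region was counted for an antibody when overlapping peaks (1 bp or more) of both its Paro/Neo libraries merged into it. This gave 651 Meis1 regions and 701 Hoxb13 regions. They joined into 1322 separate regions, against 21202 when all peaks of the 8 libraries of the study were merged. Of the 1322, 622 were held by Meis1 only, 671 by Hoxb13 only and 29 by both antibodies (29 Meis1 regions and 30 Hoxb13 regions).

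ChIP-seq, the sequencing of DNA pulled down with an antibody to a protein bound to it, was used. Ventricles were taken at postnatal day 15 from mice that had received Paro/Neo, the aminoglycoside antibiotics paromomycin and neomycin together, at 150 mg/kg into the abdomen 2 times a day for 7 days from postnatal day 7. Vehicle mice received phosphate-buffered saline. No strain, sex or genotype is given. Each antibody has 2 Paro/Neo and 2 vehicle libraries, and the label speaks of ventricles of 2 hearts, which leaves unclear whether a library is 1 heart or a pool. Any p-value given is set against the spread among the libraries, which may be technical in part. The Meis1 antibody is labelled Meis1/2, so Meis2 sites may be among its regions. The deposited names of the second Meis1 replicates carry the letter of the other treatment group. The labels were followed here, and results that turn on this are given with the other library as well. By title style and inputs the antibodies form separate sets, so antibody and set cannot be told apart. A ventricle holds many cell types, and binding in more cells cannot be told apart from stronger binding per cell.

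Meis1 belongs to the TALE class of homeodomain proteins, which bind a short TGACAG core and often act with Pbx and Hox partners. Hoxb13 is a posterior Hox protein, best known in the tail end of the embryo and in the prostate. Both have been studied in the heart as factors that limit cell division of cardiomyocytes after birth, and Hoxb13 has been described as a cofactor of Meis1 there.

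The promoters under Meis1 regions and under Hoxb13 regions differed in sequence. The RefSeq promoter table of GRCm38.p6, the assembly behind mm10, gives 250 bases before to 50 bases after a start site. It held 21263 promoters of 17492 of the 21887 protein-coding genes (79.9%). Meis1 regions overlapped 40 of these promoters and Hoxb13 regions 517, with 10 in common. The 9 promoters below show what the regions of each class cover, 5′ to 3′ on the strand of the gene. Capitals mark TGACAG or its reverse complement CTGTCA. The posterior Hox forms CAATAAA and TCGTAAA were searched on both strands as well and lay in none of the 9. The first pair of each class follows the ranking of regions, for Meis1 only among promoters with 200 or more bases inside, and Lrrc10, Cacna1c and Actc1 were added after their values were seen.

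For Meis1 only they are Apobec2, a muscle member of the cytidine deaminase family (chr17:48432679-48432978, minus strand, 246 of 300 bases inside the region), Zfp68, a zinc finger gene (chr5:138619694-138619993, minus strand, 243 bases inside), and Cacna1c, the pore of the cardiac L-type calcium channel (chr6:119196360-119196659, minus strand, wholly inside).
Apobec2: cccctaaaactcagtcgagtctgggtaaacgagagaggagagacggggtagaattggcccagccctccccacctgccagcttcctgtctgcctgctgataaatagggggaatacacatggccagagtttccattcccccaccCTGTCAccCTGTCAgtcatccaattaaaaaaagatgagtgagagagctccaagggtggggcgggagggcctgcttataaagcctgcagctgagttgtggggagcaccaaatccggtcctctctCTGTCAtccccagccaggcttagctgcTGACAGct
Zfp68: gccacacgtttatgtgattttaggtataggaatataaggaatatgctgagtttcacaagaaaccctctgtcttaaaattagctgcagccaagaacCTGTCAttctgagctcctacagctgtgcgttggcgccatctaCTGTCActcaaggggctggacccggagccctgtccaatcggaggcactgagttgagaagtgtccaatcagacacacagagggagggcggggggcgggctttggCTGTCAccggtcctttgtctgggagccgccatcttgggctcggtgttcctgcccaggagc
Cacna1c: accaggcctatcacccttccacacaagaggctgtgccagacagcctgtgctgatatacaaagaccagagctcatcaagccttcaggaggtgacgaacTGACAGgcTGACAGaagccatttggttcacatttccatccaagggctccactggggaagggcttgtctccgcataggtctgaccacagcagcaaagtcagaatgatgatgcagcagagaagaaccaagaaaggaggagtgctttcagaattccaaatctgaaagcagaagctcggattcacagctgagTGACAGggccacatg

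For both antibodies they are Myadm, a membrane protein gene (chr7:3292778-3293077, plus strand, 150 bases inside the Meis1 region), Dcaf15, a substrate receptor of a ubiquitin ligase (chr8:84104748-84105047, minus strand, 222 bases inside), and Lrrc10, a cardiac leucine-rich repeat protein (chr10:117045091-117045390, plus strand, 246 bases inside).
Myadm: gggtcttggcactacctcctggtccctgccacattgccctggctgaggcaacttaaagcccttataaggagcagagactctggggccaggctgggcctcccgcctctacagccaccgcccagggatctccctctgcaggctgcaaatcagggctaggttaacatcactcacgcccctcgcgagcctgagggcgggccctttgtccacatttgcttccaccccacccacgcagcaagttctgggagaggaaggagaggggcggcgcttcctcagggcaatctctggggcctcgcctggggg
Dcaf15: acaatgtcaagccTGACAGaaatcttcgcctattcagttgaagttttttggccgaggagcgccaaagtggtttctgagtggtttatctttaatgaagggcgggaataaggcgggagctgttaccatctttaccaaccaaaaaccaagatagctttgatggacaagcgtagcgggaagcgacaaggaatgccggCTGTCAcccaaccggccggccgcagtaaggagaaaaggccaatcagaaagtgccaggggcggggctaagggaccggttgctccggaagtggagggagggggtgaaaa
Lrrc10: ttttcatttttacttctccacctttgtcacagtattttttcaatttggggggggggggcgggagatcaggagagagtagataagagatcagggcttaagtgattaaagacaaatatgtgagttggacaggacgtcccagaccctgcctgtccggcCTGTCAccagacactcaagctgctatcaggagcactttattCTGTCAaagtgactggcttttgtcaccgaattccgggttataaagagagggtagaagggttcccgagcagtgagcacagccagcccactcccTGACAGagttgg

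For Hoxb13 only they are Slc44a1, a choline transporter (chr4:53440163-53440462, plus strand, wholly inside the Hoxb13 region), Foxj3, a forkhead factor (chr4:119539411-119539710, plus strand, wholly inside), and Actc1, cardiac alpha-actin (chr2:114052826-114053125, minus strand, 81 bases inside).
Slc44a1: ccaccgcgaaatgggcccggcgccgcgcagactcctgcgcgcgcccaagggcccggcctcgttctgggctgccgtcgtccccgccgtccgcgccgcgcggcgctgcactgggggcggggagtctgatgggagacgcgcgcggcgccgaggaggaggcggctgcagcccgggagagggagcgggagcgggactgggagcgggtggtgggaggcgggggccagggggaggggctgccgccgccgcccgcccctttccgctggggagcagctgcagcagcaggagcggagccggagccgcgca
Foxj3: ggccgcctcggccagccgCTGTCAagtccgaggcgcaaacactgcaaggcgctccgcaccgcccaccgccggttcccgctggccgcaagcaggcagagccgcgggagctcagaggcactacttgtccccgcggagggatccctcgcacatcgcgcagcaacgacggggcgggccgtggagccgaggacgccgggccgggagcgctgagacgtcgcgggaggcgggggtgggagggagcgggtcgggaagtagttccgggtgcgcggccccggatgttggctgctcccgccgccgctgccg
Actc1: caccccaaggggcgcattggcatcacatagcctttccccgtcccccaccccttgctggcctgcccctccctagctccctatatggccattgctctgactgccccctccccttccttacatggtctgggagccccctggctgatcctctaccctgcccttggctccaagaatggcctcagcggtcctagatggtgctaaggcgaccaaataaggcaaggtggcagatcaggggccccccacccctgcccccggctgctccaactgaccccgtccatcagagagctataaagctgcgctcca

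The Apobec2 promoter holds 4 matches to the TGACAG core, Zfp68, Cacna1c and Lrrc10 hold 3 each, Dcaf15 holds 2, Foxj3 holds 1, and Myadm, Slc44a1 and Actc1 hold none. Over all promoters touched by a Meis1 region, 26 of 40 (65%) held the core on either strand. The share was 83 of 517 (16.1%) for promoters touched by a Hoxb13 region and 3970 of 21263 (18.7%) for all promoters. Within the same 40 promoters the core occurred 4.11 times per kb in the bases inside the Meis1 region (34 matches in 8272 bases) and 0.805 times per kb in the bases outside it (3 matches in 3728 bases). Inside Hoxb13 regions the density was 0.614 per kb, and over all promoters it was 0.700 per kb. The core was also frequent in promoters held by both, with 6 of 10.

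The Hox letters showed no such rise in Hoxb13 promoters, and TGATTNAT was rarer there than over all promoters. These letters are rich in A and T, and base composition was not matched. The comparison therefore cannot show whether Hoxb13 promoters favour them. CAATAAA lay in 17 of 517 Hoxb13 promoters (3.29%), 4 of 40 Meis1 promoters (10%) and 3.85% of all promoters. TCGTAAA lay in 3 of 517 (0.580%), 0 of 40 and 0.574%. The Hox and Pbx composite TGATTNAT lay in 1 of 517 (0.193%), 0 of 40 and 2.75%. The GATA core AGATAA lay in 4.84% of Hoxb13 promoters, 15% of Meis1 promoters and 9.65% of all, and the cAMP response element TGACGTCA in 2.13%, 2.5% and 2.23%. None of these motifs contains the TGACAG core. Base composition separated the Hoxb13 promoters instead. Their median G and C content was 66.3%, against 58.2% for Meis1 promoters and 56.3% for all. CpG-rich promoters (observed over expected CpG of 0.6 or more) made up 87.2% of Hoxb13 promoters, 57.5% of Meis1 promoters and 47.7% of all. Among the printed promoters, G and C made up 79.7% in Slc44a1 and 75% in Foxj3 against 55.7% in Apobec2 and 54.3% in Zfp68. The Hoxb13-only promoter of Actc1 was not CpG-rich, with 62.7% G and C and a CpG ratio of 0.259. These matches are descriptions of letters in these windows, and promoters are not replicates.

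The 4 peak lists differed in length more within Hoxb13 than between the antibodies. Meis1 replicates 1 and 2 listed 1541 and 1025 peaks, and Hoxb13 replicates 1 and 2 listed 821 and 16963. The Hoxb13 pair thus stood on both sides of the Meis1 pair. The mean difference in peak number, Meis1 minus Hoxb13, was -1.57 on the log2 scale (exact two-sided permutation p = 1, n = 2 against 2). Without Hoxb13 replicate 2 it was 0.61, and the direction turned. Sequencing depth is unknown, and its part in the peak numbers was not tested.

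The place and the width of the peaks separated the antibodies in every library. Taking both ends of every protein-coding gene, the share of peaks no more than 1 kb away was 7.79% and 10.8% in the Meis1 lists and 62.5% and 44.9% in the Hoxb13 lists. The difference was -44.4 percentage points, and the groups did not overlap. Counted at RefSeq start sites alone, the shares were 6.36% and 9.30% against 49.0% and 35.1%. Peaks more than 50 kb from any protein-coding gene made up 22.9% and 24.5% for Meis1 and 4.75% and 5.84% for Hoxb13. Median peak widths were 260 and 255 bp for Meis1 against 348 and 495 bp for Hoxb13, a mean difference of -0.69 on the log2 scale. With 2 libraries against 2, the exact two-sided permutation test gave p = 0.333 for each of these 3 measures, the smallest it can give, so none could pass a threshold of 0.05. With the vehicle library of replicate 2 in place of Meis1 replicate 2, as its deposited name would have it, the 3 differences were -44.2, 16.3 and -0.67.

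**Figure D1:**
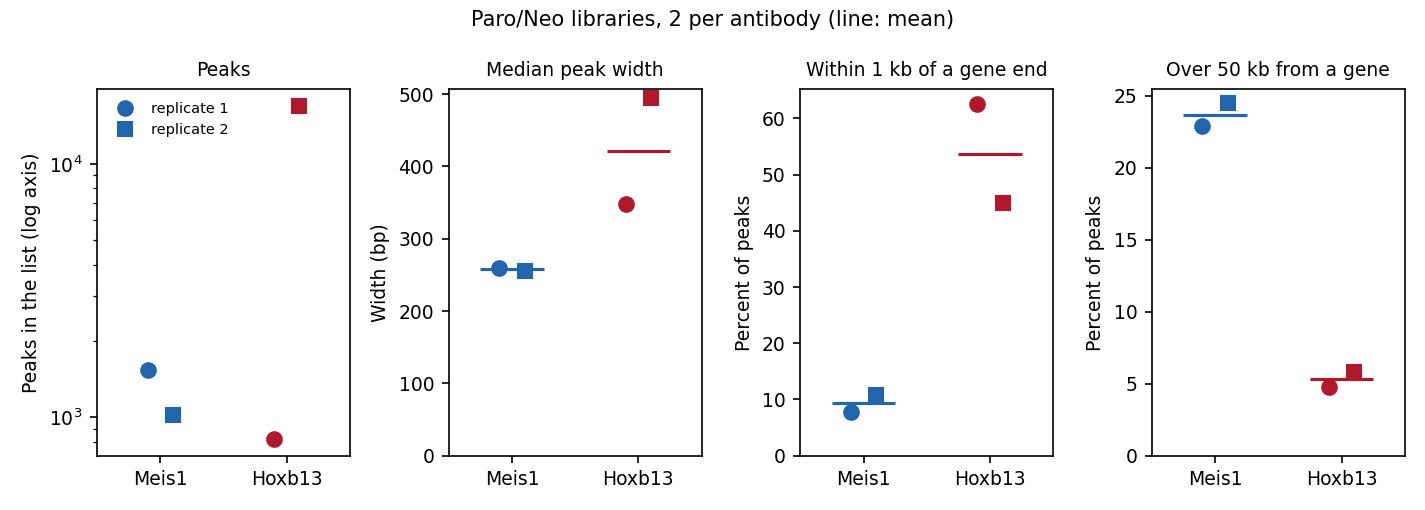
Peaks in each Paro/Neo list (log axis), median peak width in bp, and percent of peaks within 1 kb of a gene end or over 50 kb from a gene. Circles are replicate 1, squares replicate 2 and lines the mean. The Hoxb13 peak numbers of 821 and 16963 lie on both sides of the Meis1 numbers, while the gene-end shares of 7.79% and 10.8% for Meis1 lie apart from 62.5% and 44.9% for Hoxb13.

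Meis1-only regions were spread over genes and the space between them, and Hoxb13-only regions sat at gene ends. Of 622 Meis1-only regions, 324 (52.1%, exact 95% binomial interval 48.1 to 56.1%) touched a protein-coding gene, 111 (17.8%) lay 5 to 50 kb from the nearest one and 147 (23.6%) lay further than 50 kb. Of 671 Hoxb13-only regions, 601 (89.6%, interval 87.0 to 91.8%) touched a gene and 16 (2.38%) lay further than 50 kb. Within 1 kb of a gene end were 44 Meis1-only regions (7.07%) and 531 Hoxb13-only regions (79.1%). The median distance to a gene end was 24.9 kb for Meis1 only and 0 for Hoxb13 only. A RefSeq start site lay inside 15 of 597 Meis1-only regions (2.51%) and 372 of 649 Hoxb13-only regions (57.3%), leaving out chromosome 18, whose promoters were not used here. Intervals treat regions as independent and cover counting error only.

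**Figure D2:**
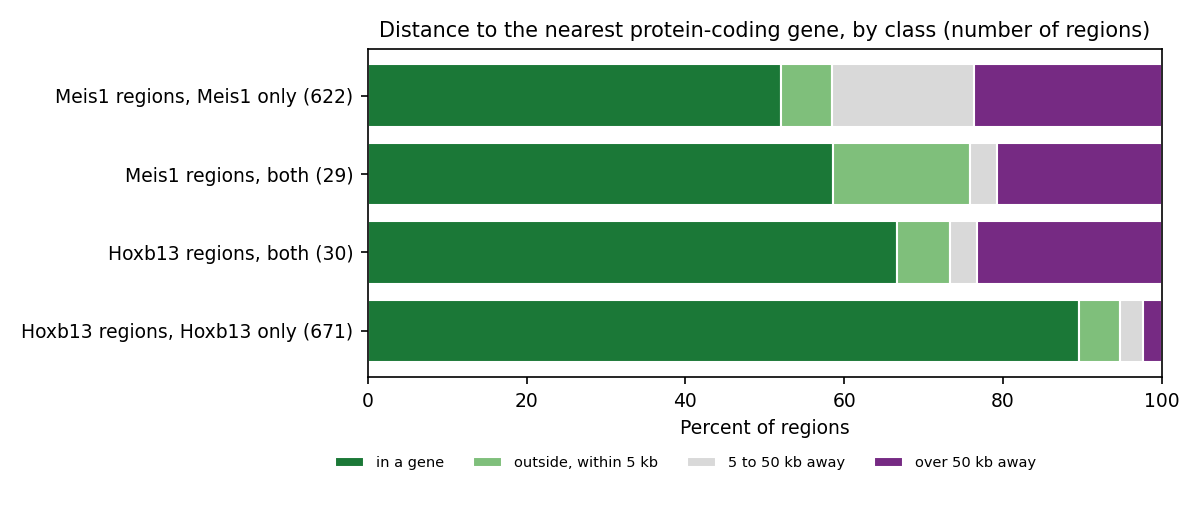
Percent of regions (horizontal axis) in a protein-coding gene, outside but within 5 kb, 5 to 50 kb away and over 50 kb away, for each class, with the number of regions in brackets. The share over 50 kb away is 23.6% for Meis1 only and 2.38% for Hoxb13 only.

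Widths differed as much, but for Hoxb13 they came from 1 library. Meis1-only regions had a median of 311 bp (quartiles 271 and 357 bp) and none reached 3 kb. Their widest lay in Peg3 (1387 bp), 0.489 kb from Josd2 (1343 bp) and in Sfi1 (1267 bp). Hoxb13-only regions had a median of 1210 bp (quartiles 767 and 2332 bp), 123 of 671 were 3 kb or wider and 27 were 10 kb or wider. The widest peak inside each Hoxb13-only region had a median of 332 bp in replicate 1 and 1207 bp in replicate 2. In Meis1-only regions the same values were 288 and 259 bp. A region merged from both lists takes the wider outline, so Hoxb13 region widths are mostly those of replicate 2. Taken alone, the replicate 1 peaks outside Meis1 regions had a median width of 353 bp, and 63.3% of them lay within 1 kb of a gene end.

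The widest Hoxb13-only regions lay over muscle genes. At Ttn, which encodes the sarcomere spring titin, they measured 96.2 kb (chromosome 2, 76699718 to 76795878) and 73.1 kb (76873801 to 76946913). At Fhl2, a LIM-domain protein of heart muscle, the region measured 71.2 kb (chromosome 1, 43117596 to 43188746). In replicate 1 the widest peaks inside these 3 regions measured 5821, 16959 and 8464 bp. Both libraries thus marked these places, with far narrower peaks in replicate 1.

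**Figure D3:**
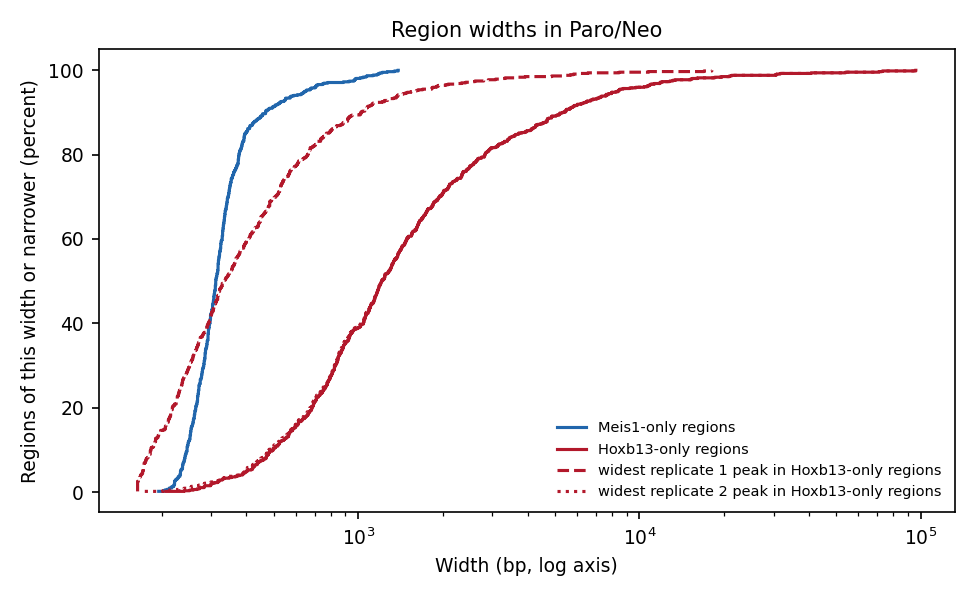
Percent of regions (vertical axis) at or below a given width in bp (log axis). Solid lines are Meis1-only and Hoxb13-only regions, and the dashed and dotted lines are the widest replicate 1 and replicate 2 peaks inside Hoxb13-only regions, with medians of 332 and 1207 bp.

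A small part of the regions of each antibody was held by both. The 701 Hoxb13 regions covered 1930 kb. The overlap expected by position alone was not computed, so the shares below are not read as avoidance. The 29 Meis1 regions that overlapped a Hoxb13 region were 4.45% of 651 (exact 95% binomial interval 3.0 to 6.34%), and the 30 Hoxb13 regions were 4.28% of 701 (2.91 to 6.05%). Of the 29, all overlapped a peak of Hoxb13 replicate 2 and 22 overlapped a peak of replicate 1 itself. Regions were ranked by the fold percentile, the share of a library's own peaks with an equal or lower fold over background, averaged over the 2 libraries of an antibody. By that rank 18 pairs had a Meis1 percentile of 5 or more, and in 15 of these 18 the Meis1 region lay wholly inside the Hoxb13 region. At equal list length, with the 821 strongest peaks of each library, 8 regions were shared, and with only peaks of −log10 q of 2 or more, 17.

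The strongest shared place was in Gse1, a gene of a chromatin corepressor (chromosome 8, Meis1 120289756 to 120290215, Hoxb13 120289627 to 120290110). Its Meis1 folds were 19.2 and 19.5 in replicates 1 and 2 and its Hoxb13 folds 4.74 and 6.05, at percentiles of 100.0 and 95.7. At 460 and 484 bp both outlines were narrow. Of the 30 shared Hoxb13 regions, 10 were 3 kb or wider, at genes of several kinds. At Mb, the oxygen store myoglobin, a Meis1 region of 419 bp (folds 6.74 and 5.93) lay 1.20 kb outside the gene and within 10.4 kb of Hoxb13 (folds 5.52 and 5.31). At Lrrc10, a Meis1 region of 289 bp over the start site (folds 4.79 and 6.24) reached into 9.22 kb of Hoxb13 (folds 3.90 and 5.61). At Hspb7, a small heat shock protein of heart muscle, 232 bp lay within 8.99 kb.

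At Dusp1, an immediate early phosphatase of MAP kinases, a Meis1 region of 297 bp lay 2.30 kb outside the gene and within a Hoxb13 region of 6970 bp (chromosome 17, 26502463 to 26509432). Ephb4, an ephrin receptor of vessels, had Hoxb13 folds of 12.4 and 6.03 and Meis1 folds of 5.41 and 6.01 over its start site. Mib1, a ubiquitin ligase that acts on Notch ligands, held 265 bp of Meis1 inside 9.94 kb of Hoxb13. Mir133a-1hg, a long noncoding RNA gene, was annotated at this place as well. No microRNA hairpin at this place is among those named below, and whether one lies here was not tested. Mylpf, a fast skeletal myosin light chain, had percentiles of 31.2 for Meis1 and 88.0 for Hoxb13. The remaining higher-ranked pairs lay at Myadm, Dcaf15, Irf2bp2, Ssbp2, Plekhf1, Ska2, Tsc22d1, Hip1, Evi5l and Gm20783, with Meis1 percentiles from 18.3 to 72.9. In 12 of the 18 a start site lay within 1 kb of the Meis1 region, while for Mib1, on chromosome 18, it was unknown. In 15 of 18 both vehicle Meis1 libraries had a peak in the Meis1 region and both vehicle Hoxb13 libraries one in the Hoxb13 region. Those vehicle Hoxb13 peaks need not lie on the Meis1 region. At Irf2bp2, Lrrc10 and Hspb7 no vehicle Hoxb13 peak overlapped it. Of all 29 shared Meis1 regions, 25 and 20 overlapped a peak of vehicle Hoxb13 replicates 1 and 2.

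The other 11 shared Meis1 regions had folds among the lowest of the lists. Their Meis1 percentiles ran from 0.406 to 2.58 and their Hoxb13 percentiles from 0.502 to 1.87, and every fold lay between 1.51 and 2.66. The split at the percentile of 5 was made after the values were seen. A cluster of 4 lay on chromosome 9 between 3000191 and 3025707, between 310 and 333 kb from the nearest gene, Alkbh8, and 1 of 5805 bp lay on chromosome 17 (39843017 to 39848821), over the RefSeq pseudogene Rn18s-rs5. Others lay in Camk1d, Zc3h7a, Cdk8 and Cmss1 and Filip1l, and 35.2 kb from Pak3 and 60.9 kb from Axin2. Of their 12 pairs, 8 lay more than 5 kb from any protein-coding gene. Among Meis1-only regions, 7 of 622 had a percentile under 5, and among Hoxb13-only regions 12 of 671. Sequence uniqueness at these places was not tested.

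**Figure D4:**
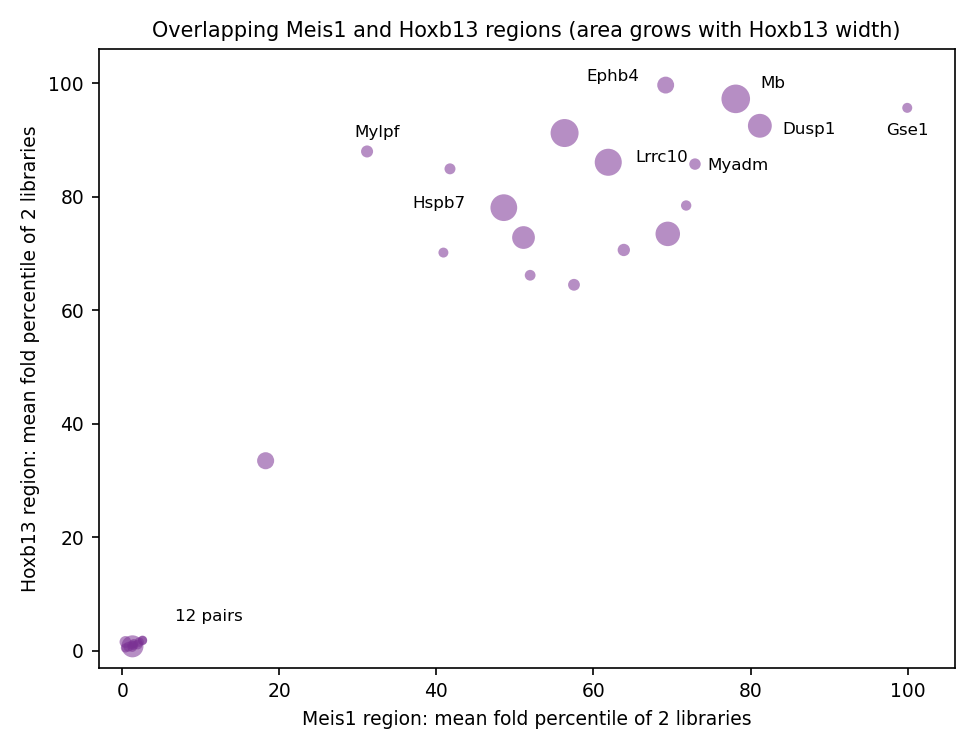
Mean fold percentile of the Meis1 region (horizontal axis) and of the Hoxb13 region (vertical axis) for the 30 overlapping pairs, with point area growing with Hoxb13 width. Of the pairs, 12 sit at the origin with percentiles under 5, and Gse1 is the only one above 90 on both axes.

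Calls outside the classes depended on single libraries. Of the 622 Meis1-only regions, 259 (41.6%, interval 37.7 to 45.6%) overlapped a peak of Hoxb13 replicate 2 and 0 overlapped one of replicate 1. The 0 is all but fixed by the class rule. Merging both Hoxb13 lists gave 16990 regions, against 16963 peaks of replicate 2 alone, so few replicate 1 peaks stood alone. Over all 651 Meis1 regions, 288 overlapped a peak of replicate 2 and 22 one of replicate 1. In the vehicle Hoxb13 libraries 36 and 5 of the 622 held a peak. The replicate 2 peaks at these places had a median fold of 3.20, against 3.10 over that whole list. The 259 lay within 1 kb of a gene end more often than the other 363, at 12.7% against 3.03%. With Hoxb13 regions of either library, 288 of the 651 Meis1 regions were shared instead of 29. In the other direction 12 and 17 of the 671 Hoxb13-only regions held a peak of Meis1 replicates 1 and 2.

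Both classes were for the most part also called in vehicle hearts. Of the Meis1-only regions, 590 of 622 (94.9%) held a peak in both vehicle Meis1 libraries and 13 in neither. Of the Hoxb13-only regions, 424 of 671 (63.2%) held a peak in both vehicle Hoxb13 libraries and 32 in neither. The vehicle Hoxb13 lists were themselves uneven, with 636 of the 671 regions called in replicate 1 and 427 in replicate 2. Acadm, Cacna1c, Hopx, Jup, Ndufa12 and Sox17 were among the genes of the lists below with a Hoxb13 region that had no vehicle call. Elsewhere within 5 kb of the gene, Cacna1c and Jup had a peak in both vehicle Hoxb13 libraries and Sox17 in replicate 1. At Acadm, Hopx and Ndufa12 neither vehicle Hoxb13 library had a peak. No test of treatment was made on these counts.

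A gene was assigned a region that lay in it or within 5 kb of it. Meis1 regions reached 405 of 21887 protein-coding genes (1.85%) and Hoxb13 regions 939 (4.29%), with 57 (0.260%) reached by both. Genes with a Meis1 region were long, with a median of 68.5 kb against 20.3 kb for Hoxb13 and 17.2 kb for all genes. Of the 57 genes, 27 were reached through overlapping regions and 30 through regions that stayed apart by a median of 15.5 kb. Myl2, the ventricular regulatory light chain, shows the second kind. Its Meis1 region of 457 bp (chromosome 5, 122094431 to 122094887; folds 12.5 and 17.3) and its Hoxb13 region of 12.8 kb (122100096 to 122112913; folds 5.21 and 6.77) lay 5.21 kb apart. In Cacna1c the regions lay 608 kb apart, Meis1 on the RefSeq start printed above and Hoxb13 beside the opposite end of the gene. Myocd, Jph2, Asb2, Hdac4, Itpr1 and Mylk3 were further genes with separate regions. These distances are between regions called in both libraries. The Meis1 regions of Myl2, Cacna1c and Jph2 themselves overlapped a peak of Hoxb13 replicate 2, and none of replicate 1.

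Gene lists by function were read beside these shares of all genes, 1.85% for Meis1 and 4.29% for Hoxb13. The single lists give a second background. A peak within 5 kb was listed for 4.07% of genes in Meis1 replicate 1, 2.83% in Meis1 replicate 2, 4.20% in Hoxb13 replicate 1 and 46.5% in Hoxb13 replicate 2. The share for both Hoxb13 libraries was thus close to that of replicate 1 alone. Of the 25 lists, 540 of 540 entries matched a gene. Shares were not adjusted for gene length, and a longer gene offers more bases for a region. Median lengths were 66.0 kb for calcium handling, 64.7 kb for intercalated disc, 43.0 kb for TALE and 32.1 kb for potassium channel genes. The median of all genes was 17.2 kb. Hippo (64.6 kb), ErbB (73.9 kb) and calcineurin genes (71.7 kb) were long as well and held no Meis1 region. With 18, 18 and 11 genes, a 0 is near the 1.85% of all genes and says nothing on length. The part of length in these shares was not tested.

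**Figure D5:**
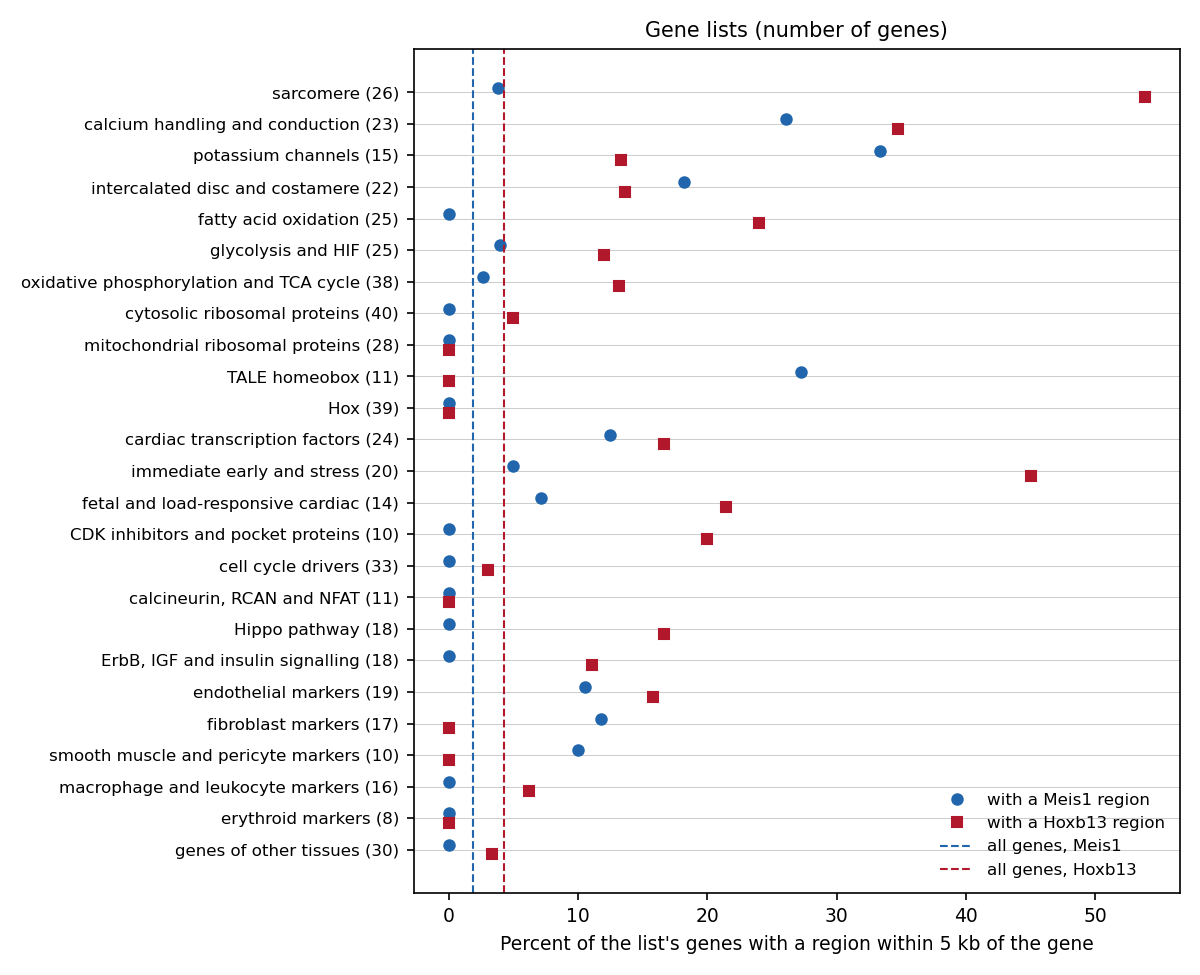
Percent of each list's genes with a Meis1 region (circles) or a Hoxb13 region (squares) called in both Paro/Neo libraries, with the number of genes in brackets. Dashed lines mark all genes, 1.85% for Meis1 and 4.29% for Hoxb13. Sarcomere genes reach 53.8% for Hoxb13 and potassium channels 33.3% for Meis1.

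Sarcomere genes were the list most often held by Hoxb13, at 14 of 26 members (53.8%), against 1 (Myl2) for Meis1. The single libraries listed a peak at 14 and 25 members for Hoxb13 and at 7 and 2 for Meis1. The vehicle Meis1 libraries listed 11 and 10. Tnnt2 had a peak of each Meis1 Paro/Neo library within 5 kb, but no Meis1 region called in both. Actc1, cardiac alpha-actin, had a 7.97 kb region with Hoxb13 folds of 7.00 and 11.05. Ttn held 9 separate Hoxb13 regions with percentiles from 49.7 to 95.5. Myh6 and Myh7, the adult and fetal cardiac myosin heavy chains, shared a region of 40.8 kb (chromosome 14, 54936072 to 54976858; folds 5.70 and 8.30). Tnnt2, cardiac troponin T, held 21.3 kb (folds 4.13 and 4.44), and Tnni3, cardiac troponin I, 7.63 kb. Csrp3, Ldb3, Mybpc3, Myh7b, Myl2, Myl3 and Tpm1 were held as well, at percentiles from 58.9 to 97.2 by their highest region. By that region all of the sarcomere genes named here but Myh7b were held in both vehicle libraries as well. With the exchanged Meis1 library, 6 sarcomere genes held a Meis1 region instead of 1.

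The shared Myh6 and Myh7 region also covers a pair of cardiac microRNAs, shown because they share a seed (capitals, bases 2 to 8). Mir208a lies at chromosome 14, 54949060 to 54949142, and Mir208b at 54975700 to 54975776.
mmu-miR-208a-3p: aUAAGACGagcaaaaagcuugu
mmu-miR-208b-3p: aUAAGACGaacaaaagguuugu
Both are known as microRNAs that are made from introns of the heavy chain genes. Of 1005 hairpins in the RefSeq table, 8 lay under a Hoxb13 region and 0 under a Meis1 region. Hairpins outside this table were not counted, so these numbers need not be complete. The other 6 were Mir3064 at Ddx5, Mir6935 at Actg1, Mir1894, Mir7655, Mir2861 and Gm51293 at Hopx. Where a hairpin sits inside a host gene, a peak cannot be assigned to one of them.

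By regions called in both libraries, calcium handling and conduction genes were held by both antibodies, mostly at different members. Meis1 held 6 of 23 (26.1%) and Hoxb13 8 of 23 (34.8%), with Cacna1c and Jph2 in common. The single libraries listed a peak at 8 and 8 members for Meis1 and at 9 and 19 for Hoxb13. The Meis1 regions of Cacna1c, Cacnb2, Cacna1g, Hcn4 and Jph2 each overlapped a peak of Hoxb13 replicate 2. Among the Meis1 members, the L-type channel gene Cacna1c (folds 6.86 and 7.61), the auxiliary L-type subunit Cacnb2 with 3 regions (6.08 and 8.63 for the highest), the T-type channel Cacna1g (9.44 and 6.97), and the pacemaker channel Hcn4 (5.69 and 6.77, 4.86 kb outside the gene) all had percentiles of 77.9 or more. Jph2, which ties the surface membrane to the calcium store, followed at 63.0. The Hoxb13 members included genes of the calcium store, channels and a gap junction gene. Atp2a2, the calcium pump SERCA2, held 54.0 kb (folds 6.90 and 5.18), its inhibitor Pln 13.4 kb (7.43 and 8.36), the release channel Ryr2 3 regions, Trdn 10.95 kb and the gap junction gene Gja1 8.23 kb. The pacemaker channel gene Hcn2 held 2.05 kb. When only regions within 5 kb of a gene end were assigned, Meis1 held 2 of the 23 and Hoxb13 7.

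Potassium channel genes were held by Meis1 at 5 of 15 (33.3%) and by Hoxb13 at 2 (13.3%). None of the 15 was held by both. Hoxb13 replicate 2 also listed a peak within 5 kb of each Meis1 member, and Meis1 replicate 1 listed one at Kcnj11. Outside the list, Kcng2 and Abcc8 held separate regions of both antibodies (Meis1 percentiles of 87.4 and 89.0, Hoxb13 percentiles of 91.2 and 86.2). At Abcc8 the Hoxb13 region was that of Kcnj11. Both genes were named after their values were seen. Meis1 regions lay, among others, at Abcc9, the sulfonylurea receptor of the ATP-sensitive channel (folds 5.53 and 7.78), Kcnj5 (6.58 and 6.46), Kcnh2 with 2 regions and Kcnd2. Hoxb13 regions lay at Kcnj11, the pore of the ATP-sensitive channel (7.20 kb), and beside Kcnk3. At equal list length the counts were 4 and 0. When only regions within 5 kb of a gene end were assigned, both antibodies held 2 of the 15, so the difference between them rested on regions deeper inside genes. Intercalated disc and costamere genes gave 4 of 22 for Meis1 and 3 for Hoxb13. The Meis1 members were Cdh2, N-cadherin (folds 9.91 and 9.56), the desmosome genes Dsp and Pkp2, and Nrap, and the Hoxb13 members were Ctnnb1 and Jup, beta-catenin and plakoglobin, and Xirp1. For these lists the single libraries of Hoxb13 ran from 2 to 11 of 15 and from 3 to 21 of 22.

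Metabolic genes had regions of Hoxb13 in 3 lists, while their Meis1 counts of 0 or 1 were near the 1.85% of all genes. Of 25 fatty acid oxidation genes, 6 (24%) had a Hoxb13 region and 0 a Meis1 region. They were Fabp3, which carries fatty acids in the cell (folds 4.10 and 4.98), Pdk4, which restrains glucose oxidation (4.37 and 5.10), the nuclear receptors Ppara and Esrra, the transporter Cd36 and the dehydrogenase Acadm, whose percentile was 14.4. This count was 2 with only peaks of −log10 q of 2 or more and 3 at equal list length. Glycolysis and hypoxia genes gave 3 of 25 (12%) for Hoxb13 (Gapdh, Gpi1 and Hif1a) and 1 for Meis1 (Egln3, a prolyl hydroxylase of HIF). Oxidative phosphorylation and TCA cycle genes gave 5 of 38 (13.2%) for Hoxb13 (Atp5a1, Atp5b, Cs, Cyc1 and Ndufa12) and 1 for Meis1 (Cox7a1, the muscle form of a cytochrome oxidase subunit, folds 4.52 and 4.95). Cytosolic ribosomal protein genes gave 2 of 40 for Hoxb13 (Rpl5 and Rps28), near the 4.29% of all genes, and 0 for Meis1. Mitochondrial ribosomal protein genes gave 0 of 28 for each.

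Of 11 TALE genes, the homeobox family of Meis1, 3 (27.3%) had a Meis1 region and 0 a Hoxb13 region. The shares over all genes were 1.85% and 4.29%. With 11 genes the 0 is near the Hoxb13 share and says nothing on the family. Hoxb13 replicate 2 alone listed a peak at 9 of the 11 and replicate 1 at 0. The Meis1 gene itself held 263 bp (chromosome 11, 19018559 to 19018821; folds 4.73 and 4.89) and Pknox1, another TALE gene, held 328 bp (4.91 and 5.69). Both were called in both vehicle Meis1 libraries and had a peak of Hoxb13 replicate 2 and not of replicate 1 within 5 kb of the gene. Of 39 Hox genes, Hoxb13 included, none had a region of either antibody. Of 24 cardiac transcription factor genes, Meis1 held 3 (Mef2a, Prdm16 and Myocd) and Hoxb13 4 (Hand2, Hopx, Tead1 and Myocd). Myocd, the coactivator of serum response factor, held 2 Meis1 regions (folds 7.07 and 9.34 for the higher) and a Hoxb13 region of 6.51 kb (4.25 and 3.69) that stayed 10.5 kb away.

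Immediate early and stress genes were the second list in the share held by Hoxb13, at 9 of 20 (45%), against 1 (Dusp1) for Meis1. They were the AP-1 members Jun, Junb, Jund and Fosl2, the Krüppel-like factors Klf2, Klf4 and Klf6, the mRNA decay factor Zfp36 and Dusp1. Percentiles of the 9 ran from 48.3 to 92.5, and each of these Hoxb13 regions touched its gene. Hoxb13 replicates 1 and 2 alone listed 9 and 19 of the 20. Restricting to −log10 q of 2 or more left 6, and equal list length left 4. Of 14 fetal and load-responsive cardiac genes, Hoxb13 held Fhl2, Myh7 and Xirp1, and Meis1 had a region 1.61 kb outside Ccn2, a matrix growth factor.

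Among genes of cell division, Hoxb13 held 2 of 10 CDK inhibitor and pocket protein genes (20%, against 4.29% of all genes), Cdkn2d (folds 3.92 and 4.07) and Rb1 (4.00 and 3.68). Of 33 cell cycle drivers it held E2f3 (3.70 and 3.69), or 3.03%, near the share of all genes. Meis1 held none of either list, and 1.85% of all genes. Calcineurin, RCAN and NFAT genes gave 0 of 11 for each antibody. Among the genes followed whatever their values, Cdkn1a, Meis2 and Ppp3ca had a peak of Hoxb13 replicate 2 and of no other Paro/Neo library. Cdkn1b and Rcan1 had a peak of Meis1 replicate 1 and of Hoxb13 replicate 2 only. Cdkn2a, Cdkn2b and Hoxb13 had none in the 4 Paro/Neo libraries. With depth unknown, an absent peak sets no limit on binding.

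Of 18 Hippo genes Hoxb13 held Amotl2, Tead1 and Tead3, and of 18 ErbB, IGF and insulin genes it held Hbegf and Igf1r; Meis1 held none of either list. Markers of other cell types were held as well, to be read beside 1.85% of all genes for Meis1 and 4.29% for Hoxb13. Endothelial genes gave 2 of 19 (10.5%) for Meis1 (Pecam1, folds 6.49 and 6.26, and Tek) and 3 (15.8%) for Hoxb13 (Egfl7, Fabp4 and Sox17). Fibroblast genes gave 2 of 17 (11.8%) for Meis1 (Gsn and Loxl1) and 0 for Hoxb13, and smooth muscle and pericyte genes 1 of 10 (10%, Mylk) and 0. Macrophage and leukocyte genes gave 0 of 16 and 1 (Cd3e), erythroid genes 0 of 8 for each, and genes of other tissues 0 of 30 and 1 (Nanos2). What cells these regions came from was not tested.

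The 12 highest-ranked Meis1-only regions were narrow, from 317 to 551 bp, and 7 of them lay more than 5 kb from any gene. The first lay 80.5 kb from Lbh, a cofactor of heart and limb development (chromosome 17, 73022492 to 73023017; folds 13.8 and 19.5), and the second 150.1 kb from the homeobox gene En1 (14.2 and 19.1). The third was that of Myl2. Regions within or beside genes followed at Bpifb1, Mmp13, a collagenase, Arl8a and Dot1l, a histone methyltransferase. The others lay 12.5 kb from Pnrc1, 24.8 kb from Bcl2l11, which encodes the cell death protein BIM, 175 kb from Ntm, 187 kb from Sec61b and 246 kb from Olfr1505. All 12 were called in both vehicle Meis1 libraries, and 8 overlapped a peak of Hoxb13 replicate 2.

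The 12 highest-ranked Hoxb13-only regions lay mostly on genes, with widths from 427 bp to 13.4 kb. The first covered the start of Slc44a1 printed above (chromosome 4, 53439901 to 53440739; folds 12.4 and 12.5), and Foxj3, Cenpu, a centromere gene, and Stx16 were also covered at their starts. Tle2, a corepressor, and Cd3e, a T cell receptor gene, had theirs 2.84 and 1.83 kb outside. In Cd3e the replicate 1 peak itself lay more than 5 kb from the gene. A region 109 kb from Jun had folds of 10.0 and 12.6, apart from the one on Jun itself. Plin4 and Hdgfl2 shared 12.1 kb, Pln and Cep85l 13.4 kb, and Enah, Tpcn1 and Krt78 held regions between 427 and 581 bp inside the gene. All 12 were called in both vehicle Hoxb13 libraries.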

How the data were processed

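Peak lists of 8 libraries were used, 4 of them from Paro/Neo hearts; 8 input libraries were not analysed here. Per the submitters' processing notes, FastQC 0.11.5, Bowtie2, Picard 1.127, MACS2 and HOMER were run on mm10. Options: not given in the sources used here. As deposited by the authors, each library has its own broad peak list, with replicates not pooled, giving per peak a fold enrichment over background (a ratio), a −log10 p-value, a −log10 q-value and a score. The deposited −log10 q was used for 1 alternative, and the deposited score and −log10 p were not used. The fold is the authors' own value and was used only to rank and describe peaks within a list. Read depth is unknown, so no limit is given for an absent peak.

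Peaks on chromosomes 1 to 19, X and Y were merged per antibody at 1 bp or more of overlap, and regions with peaks of both Paro/Neo libraries were kept. RefSeq protein-coding genes of GRCm38.p6 were assigned within 5 kb. Distances were taken to either gene end, since start sites were at hand for 79.9% of genes. Library measures were compared by an exact two-sided permutation test. Shares have exact binomial (Clopper-Pearson) 95% intervals, which cover counting error only. Named were the 12 highest-ranked and 3 widest regions per class, list members with a region, and 9 fixed genes. A few members are counted in their lists but are not reported here by name. Members and lists were chosen with earlier results of these data known, and support nothing on their own. Replicate numbers are shared between antibodies, but no label says that a number marks a shared heart or day, so no pairing was assumed. Python 3.11.15, pandas 2.3.3, numpy 2.4.6, scipy 1.17.1 and matplotlib 3.10.9 were used, and 5 of 5 checks on simulated data recovered what was put in.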

Additional observations from a re-analysis of the deposited data

How the results depend on the processing

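The width difference stayed between -0.98 and -0.43 (log2) over 8 alternatives, the gene-end difference between -54.1 and -34.2 points over 10 and the difference in peaks over 50 kb from a gene between 16.3 and 24.4 points over 9. The difference in peak number turned from -1.57 to 0.61 without Hoxb13 replicate 2 (range -3.75 to 0.61 over single libraries left out). With −log10 q of 2 or more, Hoxb13 regions fell to 441, shared Meis1 regions to 17, genes with Hoxb13 alone to 555 and genes with both to 32. With 821 peaks per library these were 318, 8, 428 and 19, and the peak-number difference is then 0 by construction. With the exchanged Meis1 library, Meis1 regions numbered 1150, genes with Meis1 alone 619 and genes with both 91. Leaving out 1 library, so that 1 list stood for an antibody, gave 651 to 1541 Meis1 regions, 701 to 16963 Hoxb13 regions and 22 to 288 shared. Genes with Meis1 alone then ran from 56 to 786, with Hoxb13 alone from 834 to 9824 and with both from 55 to 349. Hoxb13 regions of either library gave 288 shared Meis1 regions. Assigning only regions in the gene body gave 36 genes with both. Assigning within 5 kb of a gene end gave 131 with Meis1 alone and 31 with both. Start sites in place of gene ends, the list counts and the class shares were alternatives chosen after seeing the data. The q threshold and the equal list length take in fewer peaks, and the narrower gene windows fewer bases, by construction. For the other settings the cause was not tested.

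With the replicate number as a block, the differences for numbers 1 and 2 were 0.91 and -4.05 for log2 peak number (exact sign-flip p = 1), -0.42 and -0.96 for log2 width, -54.7 and -34.0 points at gene ends and 18.2 and 18.7 points over 50 kb. The last 3 had an exact p = 0.5, the smallest 2 pairs can give, so the block changed no call, and the means were -1.57, -0.69, -44.4 and 18.4 as without it. Depth is unknown, and Hoxb13 replicate 1, with 821 peaks, sets which Hoxb13 regions could be called.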

Other observations

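Most regions that did not overlap lay more than 50 kb from any region of the other antibody. The share expected by position alone was not computed, so this is not read as separation. Of the 622 Meis1-only regions, 5 lay within 5 kb of a Hoxb13 region and 47 (7.56%, exact 95% binomial interval 5.60 to 9.92%) within 50 kb, at a median of 978 kb over all 622. Of the 671 Hoxb13-only regions, 4 lay within 5 kb of a Meis1 region and 45 within 50 kb. The closest separate regions on 1 gene lay at Abhd2 (2.20 kb apart), Cirbp (2.93 kb), Osbp (3.34 kb) and Grk6 (4.76 kb), and these genes were named after their values were seen.

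The fold values of the lists had different ranges. The median fold was 4.91 and 5.08 in the Meis1 Paro/Neo libraries and 3.53 and 3.10 in the Hoxb13 ones, and the highest was 19.2 and 19.5 against 12.4 and 13.7. The covered length was 475 and 320 kb for Meis1 and 553 and 12708 kb for Hoxb13.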
